A study of Homo sapiens with 12 samples.

Results

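miR-1246 was followed as 1 entry, hsa-miR-1246, of the 153 mature miRNAs listed in either of 2 deposited count tables. It was taken by its name in each table, and its counts were read in all 12 libraries. The libraries hold small RNA from exosomes, the small vesicles that cells release, of MDA-MB-231, an established human breast adenocarcinoma line of mesenchymal character. The 4 groups of 3 libraries were untreated parental cells, parental cells treated with cisplatin, untreated sorted CSC-like cells (cancer stem cell-like; the sorting marker is not given in the sources used here) and cisplatin-treated sorted CSC-like cells. Cisplatin, a platinum drug that crosslinks DNA, was given at 56 µM for 48 h, and all groups were kept in serum depleted of exosomes. No RNA of the cells themselves was analysed here, so a change in what the cells made and a change in what they released cannot be told apart. The extraction note speaks of RNA from cells but names an exosome RNA kit, and the titles name exosomes for all 12 libraries. Whether replicates came from separate cultures is not stated, and the p-values therefore describe the spread between these libraries only, part of which may be technical.

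MicroRNAs are short RNAs that guide Argonaute proteins to messenger RNAs through the seed, the bases near the 5′ end. miR-1246 is often found among the abundant entries of vesicles and serum in cancer, and it has been described as a miRNA that targets the kinase gene DYRK1A. It has also been discussed as a fragment of U2, the small nuclear RNA of the spliceosome that pairs with the branch point of introns. U2 is held in its particle by a ring of Sm proteins on a run of U bases flanked by A and G.

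The sequences are shown because the identity of this entry decides what its counts can mean. The mature sequences of miR-1246 and of miR-1290, a listed entry that also resembles U2, are from RefSeq (GRCh38.p14), with the seed, bases 2 to 8, in capitals. Below them stand the MIR1246 hairpin, with the mature bases in capitals, and bases 84 to 122 of RNU2-1 (a U2 gene) and of RNU2-2P (a U2 gene named a pseudogene in GENCODE v29, GRCh38), with bases equal to miR-1246 in capitals. All are written 5′ to 3′ with U.
miR-1246: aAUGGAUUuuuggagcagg
miR-1290: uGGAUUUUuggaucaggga
MIR1246 hairpin: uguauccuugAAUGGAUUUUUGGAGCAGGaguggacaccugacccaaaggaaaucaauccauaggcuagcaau
RNU2-1: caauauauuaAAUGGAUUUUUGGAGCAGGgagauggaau
RNU2-2P: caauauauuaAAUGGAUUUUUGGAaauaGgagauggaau

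The mature miR-1246 lies on the minus strand of chr2:176601024-176601042, in the hairpin gene MIR1246 (chr2:176600980-176601052), which overlaps 0 other genes annotated in GENCODE v29. All 19 bases also stand, without a mismatch, in RNU2-1, as bases 94 to 112 of that 191-base RNA (chr17:43233866-43233884, minus strand). The shared run ended exactly with the mature sequence. The base before it and the base after it differed between the hairpin and U2, and of the 10 flanking bases on each side 2 upstream and 1 downstream were equal at the same offset. A read that ends within the 19 bases therefore cannot be assigned to either RNA, and the tables give no read lengths.

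Of 206694 GENCODE v29 transcripts, 20 held the sequence: MIR1246 itself and 19 small nuclear RNAs, all of them U2 or U2-like, out of 90 such entries. RNU2-2P differed from miR-1246 by G15A, C16A, A17U and G18A, where the miR-1246 base comes first and positions count from 1 at its 5′ end. miR-1290 matched bases 96 to 114 of RNU2-1 with the substitution U13G, so the 2 entries cover nearly the same stretch of U2. Both hold the letters AUUUUUG (searched on the RNA strand given; no other motif was searched), at bases 6 to 12 of miR-1246. The 2 of the 153 listed sequences with these letters (1.31%) are miR-1246 and miR-1290 themselves. That share follows from the motif searched and is no result about the libraries. Of 2370 RefSeq mature names, 5 hold the letters (0.211%). Of the other listed sequences, 0 were found whole in a GENCODE v29 transcript of a structured class. The classes were small nuclear, small nucleolar, ribosomal, vault and other small RNAs, and cytoplasmic tRNAs were not searched. How fully that annotation holds ribosomal RNA was not examined, so the 0 covers annotated transcripts only. The seed of miR-1246 was shared by 0 other listed entries and by 0 other RefSeq mature names.

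**Figure D1:**
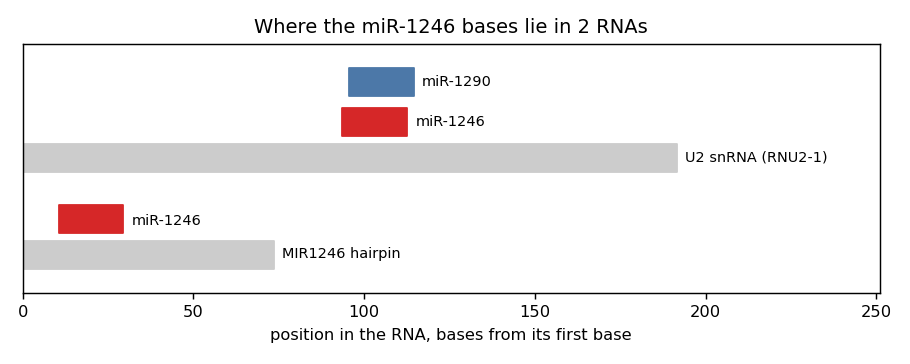
Position, in bases from the first base of each RNA, of the miR-1246 bases in U2 snRNA (RNU2-1, 191 bases) and in the MIR1246 hairpin (73 bases), with the place where miR-1290 aligns to U2. The miR-1246 bases are 94 to 112 of U2 and 11 to 29 of the hairpin, and miR-1290 is shifted along U2 to 96 to 114.

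Depth sets what can be seen of a single entry. Listed counts per library ran from 2648 to 6622 in parental and from 429 to 2522 in CSC-like exosomes, and miR-1246 was counted 490 times among 34379 counts in all (1.43%). Shares are percentages of a library's listed counts, with exact (Clopper-Pearson) 95% intervals. These describe counting error of reads alone and not the spread between libraries. Reads carry no stated molecular identifiers, so counts of reads need not be counts of molecules. The 7 miRNAs taken as marks of the line made up 50.9% to 61.4% of counts in every library, most of it miR-21-5p and miR-100-5p. The least counted of the 7 were miR-125b-5p (13, 9, 2 and 2 counts by group, in the order given above) and miR-222-3p (11, 13, 15 and 12). The listed epithelial miRNAs (2 of 6, miR-200b-3p and miR-429) reached at most 0.373%, and the listed blood and serum miRNAs (4 of 9 in either table) at most 0.466%. Each table lists only miRNAs with counts in both of its groups, so a member that is not listed need not have been absent.

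miR-1246 was counted in every library, and most of its counts came from a pair of parental ones. In untreated parental exosomes it was counted 13, 29 and 247 times, which is 0.369% (interval 0.196 to 0.629), 1.10% (0.735 to 1.57) and 6.17% (5.44 to 6.96). In replicate 3 it was the rank 3 entry by count, in replicate 2 rank 9 and in replicate 1 rank 23 of 137. The interval of replicate 3 lay above that of every other library of the study, and those of replicates 1 and 2 did not overlap each other either.

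In cisplatin-treated parental exosomes it was counted 111, 10 and 22 times, or 1.68% (1.38 to 2.02), 0.282% (0.135 to 0.517) and 0.561% (0.352 to 0.848). Replicate 1 stood above the other two beyond counting error, and the intervals of replicates 2 and 3 overlapped. Untreated parental replicate 3 and cisplatin-treated parental replicate 1 together held 358 of the 490 counts (73.1%), 247 of them in the first. They were also the libraries with the highest listed totals of their groups (4005 and 6622), and the part of depth in this was not tested.

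In untreated CSC-like exosomes miR-1246 was counted 12, 18 and 11 times, or 0.786% (0.407 to 1.37), 0.829% (0.492 to 1.31) and 0.436% (0.218 to 0.779). These 3 intervals overlapped. In cisplatin-treated CSC-like exosomes the counts were 4, 11 and 2, or 0.932% (0.255 to 2.37), 0.586% (0.293 to 1.05) and 0.127% (0.0154 to 0.458). These intervals overlapped as well, and that of the first, from the shallowest library (429 counts), covered the share of every library of the study except the highest, 6.17%, and the lowest, 0.127%. Replicates 2 and 3 of this group did not differ beyond sampling noise over all entries (chi-square per degree of freedom 1.18, p = 0.212 by a chi-square test), and they were counted as 1 sample with the mean of their shares, 0.357%.

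**Figure D2:**
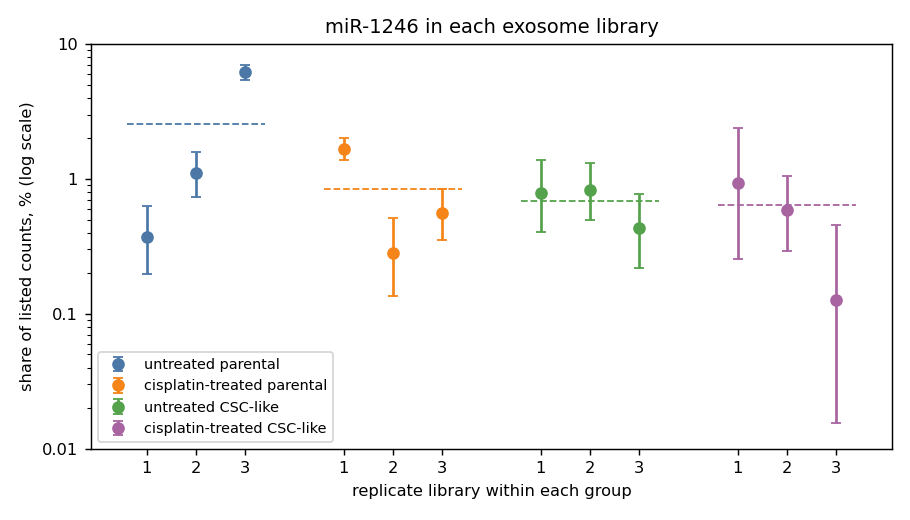
Share of listed counts (percent, log scale) that miR-1246 took in each of the 12 libraries, by group and replicate number. Bars are exact 95% intervals for counting error and dashed lines are group means (for cisplatin-treated CSC-like exosomes, of 2 samples); untreated parental replicate 3 sits at 6.17%, and the others lie between 0.127% and 1.68%.

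The order of the group means was untreated parental, cisplatin-treated parental, untreated CSC-like and cisplatin-treated CSC-like, at 2.54% ± 3.16 (SD, n = 3), 0.839% ± 0.738 (SD, n = 3), 0.684% ± 0.215 (SD, n = 3) and 0.644% ± 0.407 (SD, n = 2). No neighbours in this order differed by more than the SD of the higher group. The medians of the 3 libraries gave another order, 1.10% in untreated parental, 0.786% in untreated CSC-like, 0.586% in cisplatin-treated CSC-like and 0.561% in cisplatin-treated parental exosomes. Untreated parental exosomes were highest by either measure, and the order of the other groups depended on which was used. By the mean, that first place rested on replicate 3. Without that library the mean of cisplatin-treated parental exosomes was the higher, by 0.108 points.

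By summed counts miR-1246 was entry 6 of the untreated parental group, with 289 counts between miR-146a-5p (380) and let-7f-5p (279 counts). It was entry 13 of the cisplatin-treated parental group (143 counts, between miR-148a-3p with 162 and miR-92a-3p with 130). In untreated CSC-like exosomes it was entry 19 with 41 counts, between let-7b-5p (43) and miR-27a-3p (38). In cisplatin-treated CSC-like exosomes it was entry 26 with 17 counts, between miR-92a-3p (19) and miR-378a-3p (16).

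miR-1246 was among the least repeatable entries of the parental libraries. Its coefficient of variation over the 3 untreated parental libraries was 124%, rank 2 of the 37 entries tested there, after let-7g-5p at 128%, against a median of 59.2%. Over the cisplatin-treated parental libraries it was 87.9%, the highest of 37, with miR-4488, a GC-rich entry, next at 87.2% and a median of 29.1%. In CSC-like exosomes it was 31.5% untreated (rank 21 of 29, median 41.4%) and 73.7% with cisplatin (rank 9 of 29, median 52.5%). The highest library exceeded the lowest 16.7-fold in untreated parental, 5.95-fold in cisplatin-treated parental, 1.90-fold in untreated CSC-like and 7.34-fold in cisplatin-treated CSC-like exosomes. The last ratio rests on 4 and 2 counts, and whether the spread differed between groups was not tested.

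**Figure D3:**
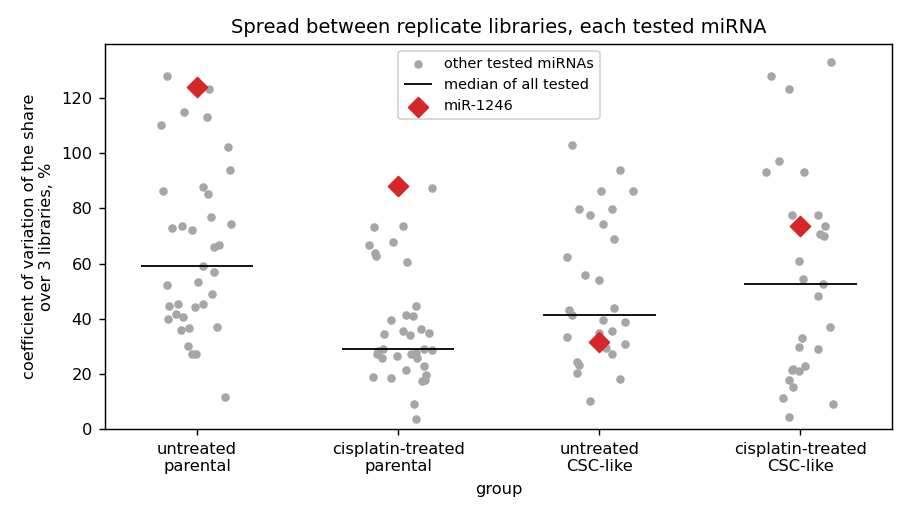
Coefficient of variation (percent) of the share over the 3 libraries of each group, for miR-1246 (diamond) and for every other miRNA tested in that cell population (grey points), with the median as a line. miR-1246 lies at 124% and 87.9% in parental groups and at 31.5% and 73.7% in CSC-like groups.

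The parental libraries also differed in the main entries, though in untreated exosomes it was replicate 2 that stood apart in miR-21-5p and miR-100-5p. In untreated parental exosomes the share of miR-21-5p, an abundant miRNA known for promoting growth of tumour cells, was 6.72%, 22.1% and 8.74%, and that of miR-100-5p was 51.1%, 21.4% and 44.5%. The let-7 family, which restrains growth-promoting genes such as RAS, took 0.851%, 28.1% and 14.6% there. Replicate 3, high in miR-1246, was thus close to replicate 1 in the former pair and lay between the other replicates in let-7. GC-rich entries took 19.6%, 2.30% and 7.29%. In cisplatin-treated parental exosomes replicate 1, high in miR-1246, also held the most GC-rich counts (14.5%, against 5.32% and 5.33%) and the least let-7 (10.2%, against 17.1% and 19.5%). The blood and serum list took 0.284%, 0% and 0.250% of the untreated and 0.0302%, 0.366% and 0.178% of the cisplatin-treated parental libraries. Of that list miR-486-5p had 13 counts in the untreated and 5 in the cisplatin-treated parental group. In the same order miR-122-5p had 6 and 8 counts, and 1 and 9 were counted for miR-126-3p. miR-451a was listed for CSC-like exosomes only, with 1 count in each group, and miR-223-3p, miR-142-5p, miR-142-3p, miR-144-3p and miR-150-5p were in neither table. The part of these entries in the miR-1246 result was not tested.

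Set against miR-21-5p, which removes the denominator of listed counts, the outlying library remained. There were 5.49, 4.95 and 70.6 counts of miR-1246 per 100 counts of miR-21-5p in untreated parental libraries, and 5.87, 0.828 and 1.69 with cisplatin. In CSC-like libraries the ratios were 3.07, 3.44 and 1.12 untreated and 3.85, 1.52 and 0.355 with cisplatin. On this scale cisplatin-treated parental replicate 1 lay beside untreated parental replicates 1 and 2, and untreated parental replicate 3 was far above all other libraries. miR-21-5p itself varied, at 6.72%, 22.1% and 8.74% of untreated and 28.6%, 34.0% and 33.1% of cisplatin-treated parental libraries. The ratios therefore move with miR-21-5p as well as with miR-1246.

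The first comparison asks whether cisplatin changed miR-1246 in parental exosomes. The estimate was lower with cisplatin but did not pass the test: the log2 fold change was -1.86 (SE 1.14), with an adjusted p of 0.324 in edgeR's quasi-likelihood test with Benjamini-Hochberg adjustment over 37 miRNAs. It ranked 13 of 37 by p. The test called 2 of the 37 (5.41%), miR-30b-5p and miR-7-5p, both higher, and the median over the 37 was a log2 fold change of -0.27. The mean share was 1.70 percentage points lower with cisplatin, with p = 0.6 in a two-sided exact permutation test whose smallest possible p is 0.1, and the groups overlapped. The size rested on untreated parental replicate 3. Without it the log2 fold change was -0.25 (adjusted p = 0.978 in edgeR) and the difference in mean share turned to 0.108 points higher with cisplatin. Without cisplatin-treated parental replicate 1 it was -2.82, and without both it was -0.83 (SE 0.53, adjusted p = 0.482 in edgeR).

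In CSC-like exosomes no change of miR-1246 with cisplatin was detectable. The log2 fold change was -0.34 (SE 0.97), with an adjusted p of 0.990 in edgeR, rank 17 of 29 by p, where 1 of 29 (3.45%) was called and the median was -0.15. The mean share differed by -0.0393 percentage points (cisplatin minus untreated; exact permutation p = 0.9), and the groups overlapped. The sign was not stable: it was 0.26 without cisplatin-treated CSC-like replicate 3 and 0.05 without untreated CSC-like replicate 2. The groups held 41 and 17 counts of miR-1246, which limits the change that can be detected.

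The comparison of untreated populations asks whether exosomes of CSC-like cells carry a different level from those of parental cells. miR-1246 had one of the smaller p-values of the 30 entries tested (rank 6) and yet was not called. The log2 fold change, CSC-like against parental, was -2.48 (SE 1.26), with an adjusted p of 0.262 in edgeR, where 1 of 30 (3.33%) was called and the median was -0.32. Mean shares differed by -1.86 percentage points (exact permutation p = 0.5), and untreated parental replicate 1, at 0.369%, lay below all 3 CSC-like libraries. Without untreated parental replicate 3 the log2 fold change was -0.56 (adjusted p = 0.826 in edgeR), and without replicate 1 it was -3.05 (adjusted p = 0.0763). DESeq2 gave -2.08 with an adjusted p of 0.106, which did not pass either.

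With cisplatin in both populations, the log2 fold change of CSC-like against parental exosomes was -0.46 (SE 0.83), with an adjusted p of 0.900 in edgeR, rank 26 of 42, where 1 of 42 (2.38%) was called and the median was 0.08. The mean share was lower by 0.195 percentage points (exact permutation p = 0.9), and the groups overlapped. Without cisplatin-treated parental replicate 1 the sign turned, to 0.31, and the mean share was then 0.223 points higher in CSC-like exosomes.

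The difference between the cisplatin responses was tested as an interaction over all 4 groups. The log2 response in CSC-like exosomes minus that in parental exosomes was 2.22 (SE 1.64), with an adjusted p of 0.773 in edgeR over 48 miRNAs, of which 1 (2.08%) was called and whose median was 0.36. Without untreated parental replicate 3 it was -0.13, and without both parental libraries high in miR-1246 it was 1.37 (adjusted p = 0.660 in edgeR). These comparisons share groups and are not independent of each other. The size of a difference in mean share of miR-1246 also depends on the denominator, since leaving out abundant entries raises every share. With miR-21-5p and miR-100-5p left out the differences were -3.66 points for cisplatin in parental and -0.0801 in CSC-like exosomes. They were -4.05 between untreated and -0.471 between treated populations, and no sign turned under this change.

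**Figure D4:**
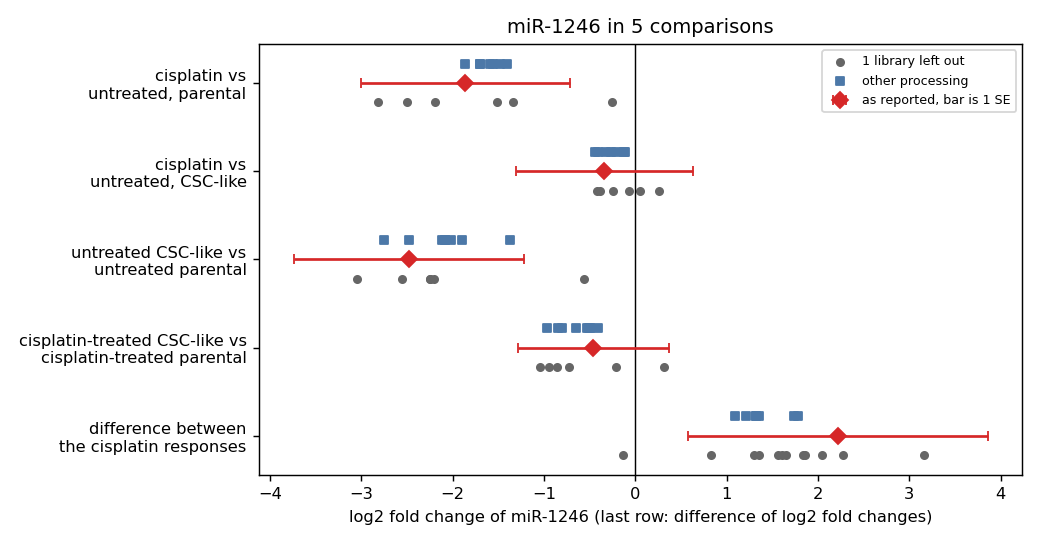
Log2 fold change of miR-1246 in the 4 comparisons and, in the last row, the difference of the cisplatin responses: diamonds with bars are estimates with 1 SE, circles leave out 1 library and squares use other processing (the fit without both high libraries is not drawn). The circle nearest or past 0 in the rows that use untreated parental exosomes is the fit without replicate 3 of that group, at -0.25, -0.56 and -0.13.

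In the authors' deposited table, miR-1246 had a signed fold change of -3.02 for cisplatin in parental exosomes, with an unadjusted p-value of 0.365 from Baggerley's test (rank 58 of 137). The authors' deposited table for CSC-like exosomes gave -1.49 with a p-value of 0.191 (rank 20 of 114). A negative value there means that many fold lower with cisplatin. The larger fold in parental exosomes had the larger p-value.

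miR-1290, the other entry aligned to U2 here, was rare. It was counted 2, 0 and 8 times in untreated and 16, 0 and 1 times in cisplatin-treated parental libraries, where its highest shares were 0.200% and 0.242%. It had 2, 0 and 0 counts in CSC-like libraries without the drug and 0, 0 and 1 with it. The pair of libraries highest in miR-1246 were also the highest in miR-1290, and in parental replicate 2 of either group miR-1290 was at 0 while miR-1246 had 29 and 10 counts. miR-1290 did not pass the filter on low counts in any of the 5 comparisons.

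In most libraries miR-1246 was the main entry of a list drawn from general knowledge, of entries said to overlap or resemble structured RNAs. Of its 28 entries, 4 were listed: miR-1246, miR-1290, miR-3135b and miR-1260a (3 and 1 counts in untreated and cisplatin-treated parental exosomes, and not listed for CSC-like). In the search above, limited to annotated transcripts and without cytoplasmic tRNAs, miR-1246 alone was found whole in a structured RNA. It made up between 62.5% and 96.1% of the counts of these 4 in each of the 9 libraries outside the cisplatin-treated CSC-like group. In that group it made up 12.9%, 12.2% and 2.53%, and miR-3135b took 182 counts there against 12 in the untreated CSC-like group. miR-3135b was the entry called in that comparison, with a log2 fold change of 4.67 in edgeR. In those 3 libraries miR-3135b was counted 27, 79 and 76 times and miR-1246 4, 11 and 2 times.

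Of 10 entries known from vesicles or tumour serum, 8 were listed, at 7.68% to 39.3% in sum, most of it miR-21-5p. In the parental comparison 3 of these were tested and 0 were called, beside 5.41% of all tested, and their median log2 fold change was 0.34, beside -0.27 for all tested. Of 20 GC-rich entries 7 were listed, and 5 were tested in parental exosomes, of which 0 were called, beside the same 5.41%, with a median log2 fold change of -1.27. Their median in the other comparisons was -1.20 in CSC-like exosomes (all tested -0.15), -0.48 between untreated populations (-0.32), 0.69 between treated populations (0.08) and 1.17 for the difference of responses (0.36), with 0 called in each (beside 3.45%, 3.33%, 2.38% and 2.08% of all tested).

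The entries whose pattern was most like that of miR-1246 were let-7a-5p, miR-1290, miR-7704, let-7b-5p and miR-100-5p. Likeness was the Pearson correlation of log2(share in percent + 0.05) over 11 samples, as a description, since entries share the library and its denominator. The value was 0.68 for let-7a-5p (Spearman 0.57), 0.61 for miR-1290 (0.31), 0.57 for miR-7704 (0.54), 0.57 for let-7b-5p (0.55) and 0.47 for miR-100-5p (0.57). Of 67 candidates 4 lay over 0.5, and the median was -0.11. Without the samples farthest from the median of miR-1246, untreated parental replicate 3 and cisplatin-treated parental replicate 2, these fell to 0.44, 0.32, 0.13, 0.50 and -0.07. The likeness of miR-7704 and miR-100-5p thus rested on those samples. That of let-7a-5p and miR-1290 rested on them in part, and miR-1290 had only 30 counts over all libraries. Farthest from it were miR-27a-3p at -0.55, miR-378a-3p at -0.55 and miR-24-3p at -0.54. Without the same samples miR-24-3p was at -0.51, miR-27a-3p was at -0.03 and miR-378a-3p turned to 0.65.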

How the data were processed

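The authors deposited 1 table per cell population with counts of whole reads for each mature miRNA in each replicate, per the file headers neither transformed nor normalized. Beside them the authors deposited a score, a signed fold change between weighted proportions, and an unadjusted p-value from Baggerley's test. Cutadapt and FastQC are named in the submitters' processing notes. For the aligner, the mismatches allowed, the handling of reads with several matches and the genome build, nothing is given in the sources used here, and these steps decide whether U2 fragments count as miR-1246. Each table lists only miRNAs with counts in both of its groups (137 parental, 114 CSC-like, 98 in both), and 1 line per file was not analysed here. A count of 0 (taken as up to 3 counts) would leave room for 0.0453% of the deepest library and 0.699% of the shallowest.

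The test was edgeR's (version 4.0.16, with limma 3.58.1 under R 4.3.3) on the deposited counts, with filterByExpr defaults (minimum count 10, minimum total 15), TMM, the quasi-likelihood F test, Benjamini-Hochberg adjustment within each comparison and a threshold of 0.05. Listed totals served as library sizes. Cisplatin-treated CSC-like replicates 2 and 3 were summed, leaving 11 samples. Alternatives were DESeq2 1.42.0, other scalings, filters, denominators, a replicate block and leaving out each library. Besides miR-1246, the text names entries by likeness (5 highest and 3 lowest among entries that both tables list with at least 24 counts), neighbours in rank, miR-1290 and members of lists. miR-1246 and the lists were chosen with earlier results of these data known. Sequences come from RefSeq (GRCh38.p14) and GENCODE v29 (GRCh38). Of 153 listed names 134 matched RefSeq, all with the same sequence.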

Additional observations from a re-analysis of the deposited data

How the results depend on the processing

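miR-1246 was called in none of the comparisons under any alternative run. Its log2 fold change for cisplatin in parental exosomes ranged from -2.82 to -0.25 (adjusted p 0.095 to 0.978 in edgeR or DESeq2), and that of untreated CSC-like against parental from -3.05 to -0.56 (adjusted p 0.0763 to 0.932), with the same sign under all 14 alternatives each. The sign turned in CSC-like exosomes (0.26 without cisplatin-treated replicate 3, 0.05 without untreated replicate 2; leaving out 1 library gave -0.42 to 0.26, and adjusted p over all alternatives was 0.84 to 0.997), between treated populations (0.31 without cisplatin-treated parental replicate 1; -1.04 to 0.31, adjusted p 0.616 to 0.993) and for the difference of responses (-0.13 without untreated parental replicate 3; -0.13 to 3.16, adjusted p 0.531 to 0.958). Differences in mean share ranged over left-out libraries from -2.79 to 0.108 points in parental exosomes, -0.327 to 0.0755 in CSC-like, -2.95 to -0.0481 between untreated and -0.483 to 0.223 between treated populations. The CSC-like share difference was 0.0162 with GC-rich and other structured entries out of the denominator, and 0.012 and 0.0332 without untreated replicate 1 or 2. The cause of these shifts was not tested.

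Calls over all miRNAs were few and unstable. In parental exosomes there were 2, 4 by DESeq2, 0 with no filter on low counts and 1 to 8 with 1 library left out. The 1 call in CSC-like exosomes became 0 under the replicate block and 0 to 1 with a library left out. The 1 call between untreated populations became 2 with DESeq2 size factors, 5 in the model over 4 groups and 0 to 3 with a library left out. Between treated populations DESeq2 gave 2 and each left-out library 1. The interaction call became 2 with library totals, 2 with every library separate, 0 with at least 15 counts, 0 under the block and 0 to 1 with a library left out. Library totals in place of TMM moved the median over all tested miRNAs from -0.27 to 0.01 in parental exosomes, from -0.32 to 0.14 between untreated populations and from 0.36 to -0.28 for the interaction.

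Replicate numbers gave no clear pairing of the samples. Deviations of same-numbered libraries correlated at 0.412, 0.466 and -0.0388 in parental and -0.662, -0.759 and 0.406 in CSC-like exosomes. Between untreated populations the values were -0.158, -0.512 and -0.242, and between treated ones 0.311, 0.205 and 0.082. In no comparison did every library match its own number best. Deviations from means of 3 libraries cannot settle whether a number marks a shared culture or batch. With the replicate block miR-1246 was at -1.56, -0.32, -1.37, -0.50 and 1.32 in the order of the report (adjusted p 0.598, 0.895, 0.932, 0.649 and 0.769 in edgeR). The fits without both high parental libraries were chosen after seeing the data.

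Depth limits what 2 to 29 counts in 10 of the 12 libraries can show.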
